A study of Mus musculus with 10 samples.

Results

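Fas and 9 other genes known as targets of the transcription factor p53 were followed in mouse lungs at postnatal day 14 (P14), as 10 genes of the 54532 in the deposited table. The genes are Fas, Cdkn1a, Mdm2, Ccng1, Trp53inp1, Bax, Bbc3, Eda2r, Tnfrsf10b and Zmat3. They were chosen by name with their FPKM in IncPBF against sham lungs already known. That difference, and whether it passes the threshold used for all genes, is therefore given for them as a description only. The data are bulk RNA-sequencing of 10 lungs, 5 per group, from wild-type C57/BL6 pups of either sex. In the IncPBF group, increased pulmonary blood flow was produced at P7 by a puncture from the abdominal aorta into the inferior vena cava. The sham group had the same laparotomy without the puncture, so both groups carried the anaesthesia and the abdominal surgery, and unoperated pups were not analysed here. The model acts on the whole circulation and not on the lung alone. The labels tell the lungs apart by number and do not say whether pups shared a litter. The p values set the difference between the groups against the spread between these lungs.

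The p53 protein is a transcription factor that is held low by the ubiquitin ligase Mdm2 and is stabilised when DNA is damaged or cells are stressed. Its targets arrest the cell cycle, repair DNA, switch on death receptors at the cell surface and act on the mitochondrial route of apoptosis. Fas is a death receptor that recruits the adaptor Fadd and caspase-8 when it binds Fas ligand, and in the lung it is found on epithelial, endothelial and immune cells. p53 binds DNA at a pair of decamers, each with purines at its 5′ end, pyrimidines at its 3′ end and a short core between them.

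Levels are given as FPKM, which divides the fragments sequenced from a gene by its length in kilobases and by the library size that the authors used. The library sizes recovered from the values were 17255100 to 20763727 fragments. They were above the fragments on genes in every IncPBF lung and below them in sham lungs 1, 2 and 5. The lungs had 16103423 to 20318525 fragments on genes, and 1 fragment on a gene of 1 kb was worth 0.0482 to 0.0580 FPKM. Markers of alveolar, endothelial and airway cells were present in all 10 lungs, and the libraries were not alike in sex-linked genes. Xist RNA, made from the inactive X chromosome, was at 52.4 to 66.5 FPKM in IncPBF lungs 2 to 5 whereas IncPBF lung 1 and the sham lungs did not exceed 0.0770 FPKM. The Y-linked gene Ddx3y was at 18.6 FPKM in IncPBF lung 1 and at 21.8 to 24.6 FPKM in the sham lungs, and IncPBF lungs 2 to 5 did not exceed 0.00926 FPKM. IncPBF lung 1 is thus the only IncPBF lung with the sex-linked expression of the sham lungs. In sham lung 5 the club cell gene Scgb1a1 was at 128 FPKM against 4802 to 11743 FPKM in the other lungs. The gene with the highest level in sham lung 5 was Gm23935, at 22922 FPKM, whereas in each other lung it was Sftpc or Scgb1a1. Sham lung 1 held the highest sham level of 5 of the 10 genes, and sham lung 5 that of 4, as described further on.

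All 10 genes had a mean of at least 0.5 FPKM and were among the 15388 genes tested. At the threshold used for all genes, an adjusted p under 0.05 in limma, 4 of the 10 genes were lower in the IncPBF group, where 16.2% of all genes tested were lower. Another 2 of the 10 were higher, where 16.1% of all genes tested were higher. The lower genes were Fas, Cdkn1a, Trp53inp1 and Ccng1, the higher genes were Tnfrsf10b and Bax, and Mdm2, Bbc3, Zmat3 and Eda2r did not pass. The groups did not overlap in 4 of the 10 genes, beside 23.2% of all genes tested. Fas, Cdkn1a and Trp53inp1 were lower in each IncPBF lung than in any sham lung, as were 11.2% of all genes tested, and Tnfrsf10b was higher in each, as were 12.0%. Log2 fold changes, here of FPKM + 0.1, ran from -0.95 in Cdkn1a to 0.76 in Tnfrsf10b with a median of -0.12, and the median over all genes tested was 0.01. Because the choice of the genes used this contrast, nothing is read from these counts.

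**Figure D1:**
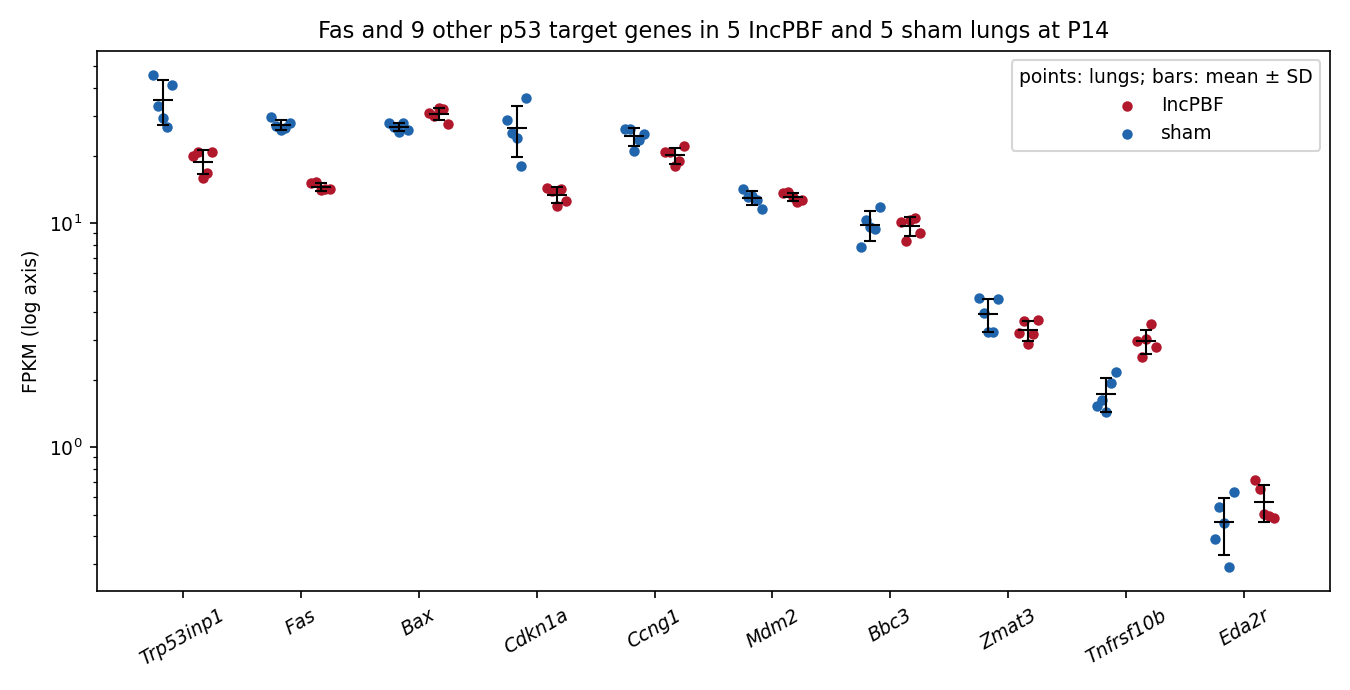
FPKM on a log axis (vertical) of the 10 genes (horizontal, ordered by the sham mean); each point is 1 lung, and the bars are the mean and SD of the 5 lungs per group. The groups lie apart in Trp53inp1, Fas and Cdkn1a, with IncPBF lower, and in Tnfrsf10b, with IncPBF higher.

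Among the death receptors, Fas (ENSMUSG00000024778, chromosome 19 of GRCm38 from 34290659 to 34327770, plus strand) was lower in the IncPBF group. Its level was 15.1, 15.2, 13.98, 14.2 and 14.1 FPKM in IncPBF lungs 1 to 5 and 29.6, 27.2, 25.9, 26.6 and 27.998 FPKM in sham lungs 1 to 5. The highest IncPBF lung lay far below the lowest sham lung, and no lung of either group stood apart. The means were 14.5 ± 0.606 FPKM for IncPBF and 27.5 ± 1.41 FPKM for sham (SD, n = 5 each), a log2 fold change of -0.91 (SE 0.05), where SE is the standard error of the limma fit, and 2.19% of all genes tested had a lower value. These levels rest on 440 to 528 fragments per IncPBF lung and 878 to 957 per sham lung. The short non-coding RNA gene Gm27818, which lies within Fas on the same strand, held no more than 6 fragments per lung, or 1.14% of those of Fas.

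Tnfrsf10b (ENSMUSG00000022074, chromosome 14 of GRCm38 from 69767472 to 69784411, plus strand) encodes the mouse receptor of the death ligand Trail. It was at 2.99, 2.54, 3.03, 3.54 and 2.80 FPKM in IncPBF lungs 1 to 5 and at 1.52, 1.62, 1.43, 1.93 and 2.16 FPKM in sham lungs 1 to 5. Every IncPBF lung was above every sham lung, in the opposite direction to Fas. The means were 2.98 ± 0.370 FPKM for IncPBF and 1.73 ± 0.304 FPKM for sham (SD, n = 5 each), and the log2 fold change was 0.76 (SE 0.13). The ratio of Fas to Tnfrsf10b in FPKM, taken within each lung, was 4.00 to 6.01 in IncPBF lungs, against 12.96 to 19.4 in sham lungs. Both receptors are targets of p53 and both are coupled to caspase-8, and their levels moved apart in these lungs.

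Eda2r (ENSMUSG00000034457, chromosome X of GRCm38 from 97333840 to 97377216, minus strand), the receptor of ectodysplasin A2, was near the lower limit of the genes tested. It was at 0.711, 0.652, 0.505, 0.492 and 0.482 FPKM in IncPBF lungs 1 to 5 and at 0.388, 0.541, 0.460, 0.293 and 0.634 FPKM in sham lungs 1 to 5. The groups overlapped, and IncPBF lungs 1 and 2 held the highest levels. The log2 fold change was 0.27 (SE 0.23) and rests on 50 to 81 fragments per IncPBF lung and 33 to 65 per sham lung. Counting error alone gave a coefficient of variation of 14.1% in the sham lungs, where the measured one was 28.5%. Eda2r lies on the X chromosome, and IncPBF lung 1 had a higher level than each of the 4 IncPBF lungs with Xist.

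Cdkn1a (ENSMUSG00000023067, chromosome 17 of GRCm38 from 29090976 to 29100727, plus strand) encodes p21, the inhibitor of cyclin-dependent kinases through which p53 arrests the cell cycle. It was at 14.4, 13.95, 11.9, 14.1 and 12.5 FPKM in IncPBF lungs 1 to 5 and at 28.9, 25.3, 24.1, 17.98 and 36.2 FPKM in sham lungs 1 to 5. The IncPBF lungs were close to each other, the sham lungs differed up to 2.02-fold, and the lowest sham lung, number 4, was still above every IncPBF lung. The means were 13.4 ± 1.11 FPKM for IncPBF and 26.5 ± 6.72 FPKM for sham (SD, n = 5 each), a log2 fold change of -0.95 (SE 0.15) from 780 to 989 fragments per IncPBF lung and 1221 to 2242 per sham lung. A gene model on the opposite strand, AC167363.2, overlaps Cdkn1a by 1046 bases and had 3 to 18 fragments per lung, at most 1.15% of those of Cdkn1a.

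Ccng1 (ENSMUSG00000020326, chromosome 11 of GRCm38 from 40748552 to 40755311, minus strand) encodes cyclin G1, which acts with Mdm2 in feedback on p53. It was at 20.7, 20.8, 17.9, 18.9 and 22.01 FPKM in IncPBF lungs 1 to 5 and at 26.2, 26.4, 20.97, 23.5 and 25.1 FPKM in sham lungs 1 to 5. Only sham lung 3 lay within the range of the IncPBF lungs. The means were 20.1 ± 1.64 FPKM for IncPBF and 24.4 ± 2.25 FPKM for sham (SD, n = 5 each), with a log2 fold change of -0.28 (SE 0.08).

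Among the genes of feedback and stress response, Mdm2 (ENSMUSG00000020184, chromosome 10 of GRCm38 from 117688875 to 117710758, minus strand) was at 13.6, 13.8, 13.1, 12.4 and 12.7 FPKM in IncPBF lungs 1 to 5. In sham lungs 1 to 5 it was at 14.2, 13.02, 13.2, 12.7 and 11.6 FPKM. All 5 IncPBF lungs lay within the sham range, with a log2 fold change of 0.02 (SE 0.06). Mdm2 is the best known feedback target of p53, and the ratio of Cdkn1a to Mdm2 within a lung was 0.906 to 1.14 in the IncPBF group and 1.41 to 3.14 in the sham group.

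Trp53inp1 (ENSMUSG00000028211, chromosome 4 of GRCm38 from 11156431 to 11174379, plus strand) encodes a stress-induced nuclear protein that takes part in cell death and autophagy. It was at 20.02, 20.7, 15.9, 16.8 and 20.7 FPKM in IncPBF lungs 1 to 5 and at 45.6, 33.4, 29.4, 26.9 and 41.4 FPKM in sham lungs 1 to 5. No IncPBF lung reached the lowest sham lung, and sham lungs 1 and 5 were well above the other 3 sham lungs. The means were 18.8 ± 2.30 FPKM for IncPBF and 35.4 ± 7.95 FPKM for sham (SD, n = 5 each), a log2 fold change of -0.89 (SE 0.14) from 1873 to 2783 fragments per IncPBF lung and 3333 to 5304 per sham lung.

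Zmat3 (ENSMUSG00000027663, chromosome 3 of GRCm38 from 32334792 to 32366014, minus strand) encodes a zinc finger protein that binds RNA. It was at 3.23, 3.66, 2.87, 3.18 and 3.68 FPKM in IncPBF lungs 1 to 5 and at 4.62, 3.95, 3.28, 3.25 and 4.58 FPKM in sham lungs 1 to 5. Sham lungs 1, 2 and 5 were above every IncPBF lung and sham lungs 3 and 4 were not, and the log2 fold change was -0.23 (SE 0.12).

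The 2 genes of the mitochondrial route did not follow Fas. Bax (ENSMUSG00000003873, chromosome 7 of GRCm38 from 45461697 to 45466898, minus strand), which opens the outer mitochondrial membrane, was at 30.9, 29.997, 32.6, 32.1 and 27.7 FPKM in IncPBF lungs 1 to 5 and at 27.96, 26.8, 25.6, 27.9 and 25.9 FPKM in sham lungs 1 to 5. IncPBF lungs 1 to 4 were above every sham lung, and IncPBF lung 5 lay within the sham range. Its log2 fold change was 0.19 (SE 0.05), and it no longer passed the threshold of all genes without IncPBF lung 3 (log2 fold change 0.17) or without IncPBF lung 4 (also 0.17). Bbc3 (ENSMUSG00000002083, chromosome 7 of GRCm38 from 16308393 to 16318205, plus strand) encodes Puma, which binds and blocks the protective members of the Bcl2 family. It was at 10.1, 8.32, 10.3, 10.6 and 9.05 FPKM in IncPBF lungs 1 to 5 and at 7.84, 10.3, 9.55, 9.43 and 11.8 FPKM in sham lungs 1 to 5. Both extremes were sham lungs, and the log2 fold change was -0.01 (SE 0.10). The ratio of Bax to Fas within a lung was 1.96 to 2.33 in the IncPBF group and 0.925 to 1.05 in the sham group.

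Promoter sequence from RefSeq on GRCm38.p6 was matched by symbol for 7 of the 10 genes, all but Trp53inp1, Tnfrsf10b and Zmat3, in 10 windows of the 250 bases before a start site. The p53 decamer was searched without mismatch, and it reads the same on both strands. It was found in at least 1 window each of Cdkn1a, Mdm2, Ccng1 and Bax, and of 8.20% of the 27025 genes in the reference. The genes were chosen as p53 targets, so these matches describe them and are not evidence of binding in these lungs. The stretches around the decamers are shown because genes that were lower (Cdkn1a and Ccng1), higher (Bax) and not past the threshold (Mdm2) all carry them. Capitals mark the decamers, and each stretch reads 5′ to 3′ on the strand of its gene.
Cdkn1a, chr17:29090881-29090962, plus strand: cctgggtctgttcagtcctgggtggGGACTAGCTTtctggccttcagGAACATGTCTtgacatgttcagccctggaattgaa
Ccng1, chr11:40755437-40755496, minus strand: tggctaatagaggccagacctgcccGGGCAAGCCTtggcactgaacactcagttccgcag
Mdm2, chr10:117710910-117710969, minus strand: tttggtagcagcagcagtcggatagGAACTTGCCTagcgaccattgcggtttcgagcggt
Bax, chr7:45467065-45467124, minus strand: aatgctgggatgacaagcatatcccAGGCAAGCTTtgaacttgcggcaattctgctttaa
The Cdkn1a stretch lies before the start of the gene and holds 2 decamers, which begin 73 and 51 bases before that site and are 12 bases apart. Near matches beside them are not marked, since no mismatch was allowed. Another Cdkn1a window, chr17:29093519-29093768, holds no decamer. A pair of decamers at most 13 bases apart was present in 21 of the 32817 windows of the reference. The decamers of Ccng1, Mdm2 and Bax begin 185, 186 and 201 bases before the start site. The window of Fas, chr19:34290409-34290658 on the plus strand, is shown because Fas is the death receptor that was lower, and it holds no decamer.
Fas: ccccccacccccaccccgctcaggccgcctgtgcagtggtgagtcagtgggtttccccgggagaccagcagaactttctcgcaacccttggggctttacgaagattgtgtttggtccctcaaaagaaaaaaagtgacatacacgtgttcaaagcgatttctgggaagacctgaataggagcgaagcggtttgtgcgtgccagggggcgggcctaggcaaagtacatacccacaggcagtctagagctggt
No match says only that these letters are not in this window.

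FPKM is scaled to gene length, so the levels of the 10 genes can be ordered within a group. In the sham group Trp53inp1 had the highest mean, followed by Fas, Bax, Cdkn1a and Ccng1, and each neighbouring pair in this order overlapped in its range over the 5 lungs. Mdm2 came next and was apart from Ccng1, followed by Bbc3, which overlapped with Mdm2, and then by Zmat3, Tnfrsf10b and Eda2r, each apart from its neighbours. In the IncPBF group Bax led and was above Ccng1 in 5 of 5 lungs without overlap of the ranges. Ccng1 and Trp53inp1 overlapped and were followed by Fas, Cdkn1a and Mdm2, whose neighbouring ranges also overlapped. Bbc3 was apart from both neighbours, Zmat3 and Tnfrsf10b overlapped, and Eda2r was the lowest. Fas was thus at place 2 in the sham group and at place 4 in the IncPBF group.

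The lungs within a group also differed, and this spread enters the standard errors of the group contrast. On the log2 scale the SD of Fas over the sham lungs was larger than that of 16.1% of the 2030 genes within 0.5 of its mean level. The coefficient of variation of Fas was 5.15% in the sham lungs, against 3.31% from counting error. Cdkn1a had a larger sham SD than 98.4% of the 2131 genes within 0.5 of its level, with a coefficient of variation of 25.4% against 2.41% from counting. Trp53inp1 had a larger sham SD than 96.4% of 1650 such genes, with a coefficient of variation of 22.5% against 1.54% from counting. Sham lungs 1 and 5 were the highest pair of the sham lungs in Fas, Cdkn1a, Trp53inp1 and Zmat3, as in 16.4% of all genes tested. Sham lung 4 was the lowest in Cdkn1a, Trp53inp1, Zmat3 and Eda2r, as in 17.6% of all genes tested. In the IncPBF group, lungs 3 and 4 were the lowest pair in Ccng1, Trp53inp1 and Zmat3, as in 16.6% of all genes tested. Without sham lung 5 the log2 fold change of Cdkn1a was -0.83, and without sham lung 4 it was -1.08.

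**Figure D2:**
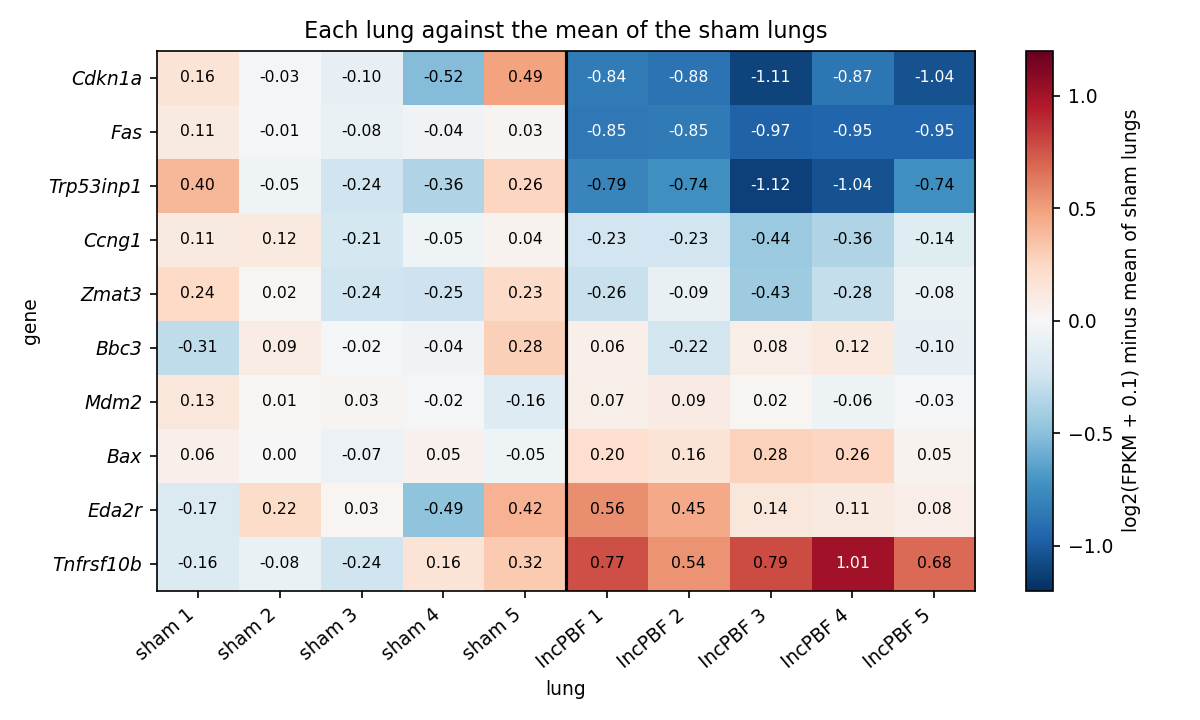
Difference in log2(FPKM + 0.1) of each lung (horizontal) from the mean of the 5 sham lungs for the 10 genes (vertical, ordered by log2 fold change); blue is lower and red is higher. Fas was -0.97 to -0.85 in IncPBF lungs, against -0.08 to 0.11 in sham lungs, while Cdkn1a spread from -0.52 to 0.49 in the sham lungs.

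Because Xist and group run together, the 10 genes were also read in IncPBF lung 1 alone, the IncPBF lung with the sex-linked expression of the sham lungs. Relative to the sham mean its level on the log2 scale was -0.85 for Fas, -0.84 for Cdkn1a and -0.79 for Trp53inp1, all below every sham lung. It was also below every sham lung in Ccng1 (-0.23) and Zmat3 (-0.26). It was above every sham lung in Tnfrsf10b (0.77), Bax (0.20) and Eda2r (0.56), and within the sham range in Mdm2 and Bbc3. The share of all genes tested for which this lung lay outside the sham range is not given, so nothing is read from these places. With log2 Xist as a covariate over all 10 lungs, the log2 fold change of Fas was -0.85 (standard error 0.09), and Fas was the only one of the 10 genes to pass the threshold, as 4.82% of all genes tested did in that fit. In that fit Cdkn1a was at -0.82 (standard error 0.27), Trp53inp1 at -0.76 (standard error 0.25) and Tnfrsf10b at 0.78 (standard error 0.22). The genes were chosen with their values in these lungs known, so this too is a description. Outside IncPBF lung 1, group and sex-linked expression cannot be told apart.

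**Figure D3:**
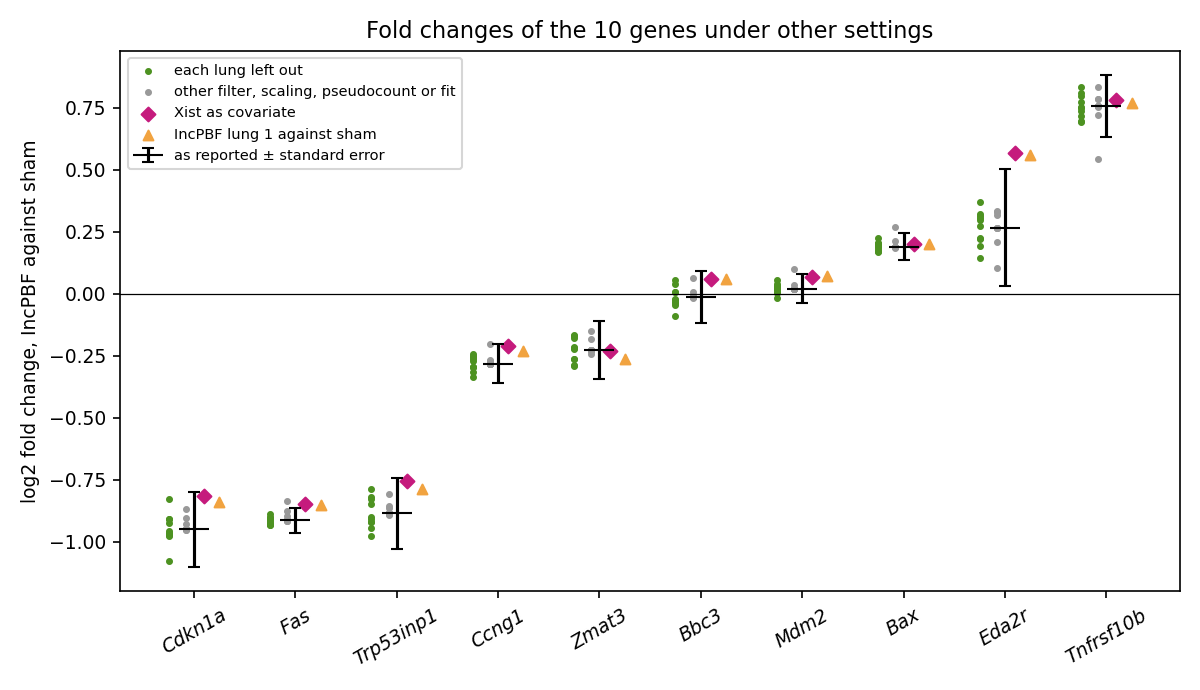
Log2 fold change of IncPBF against sham (vertical) of the 10 genes (horizontal) as reported with its standard error, with each lung left out, under other filters, scalings, pseudocounts and fits, with Xist as covariate, and for IncPBF lung 1 against the sham lungs. Cdkn1a, Fas and Trp53inp1 stay between -1.08 and -0.76 in all of these, and Tnfrsf10b between 0.54 and 0.84.

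The other genes of the p53 and death receptor pathways, 126 in 8 lists drawn up by function, were tested in the same fit, and 115 of them had a mean of at least 0.5 FPKM. Of these, 28 rose and 30 fell in the IncPBF group (50.4% together), beside 32.3% of all genes tested in either direction. The median log2 fold change of the 115 genes was -0.01. The lists were drawn up with earlier results of these data known, so nothing is read from these shares. When each lung was rescaled to an equal total of fragments, which raised the median of all genes tested from 0.01 to 0.09, 32 rose and 21 fell. With log2 Xist as a covariate 16 of the 58 kept their call. In what follows, rises and falls given without a unit are log2 fold changes, and a pair of levels gives the IncPBF mean against the sham mean, with the SD of 5 lungs each. The counts per list in the fit as reported stand beside 16.1% of all genes tested higher and 16.2% lower.

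**Figure D4:**
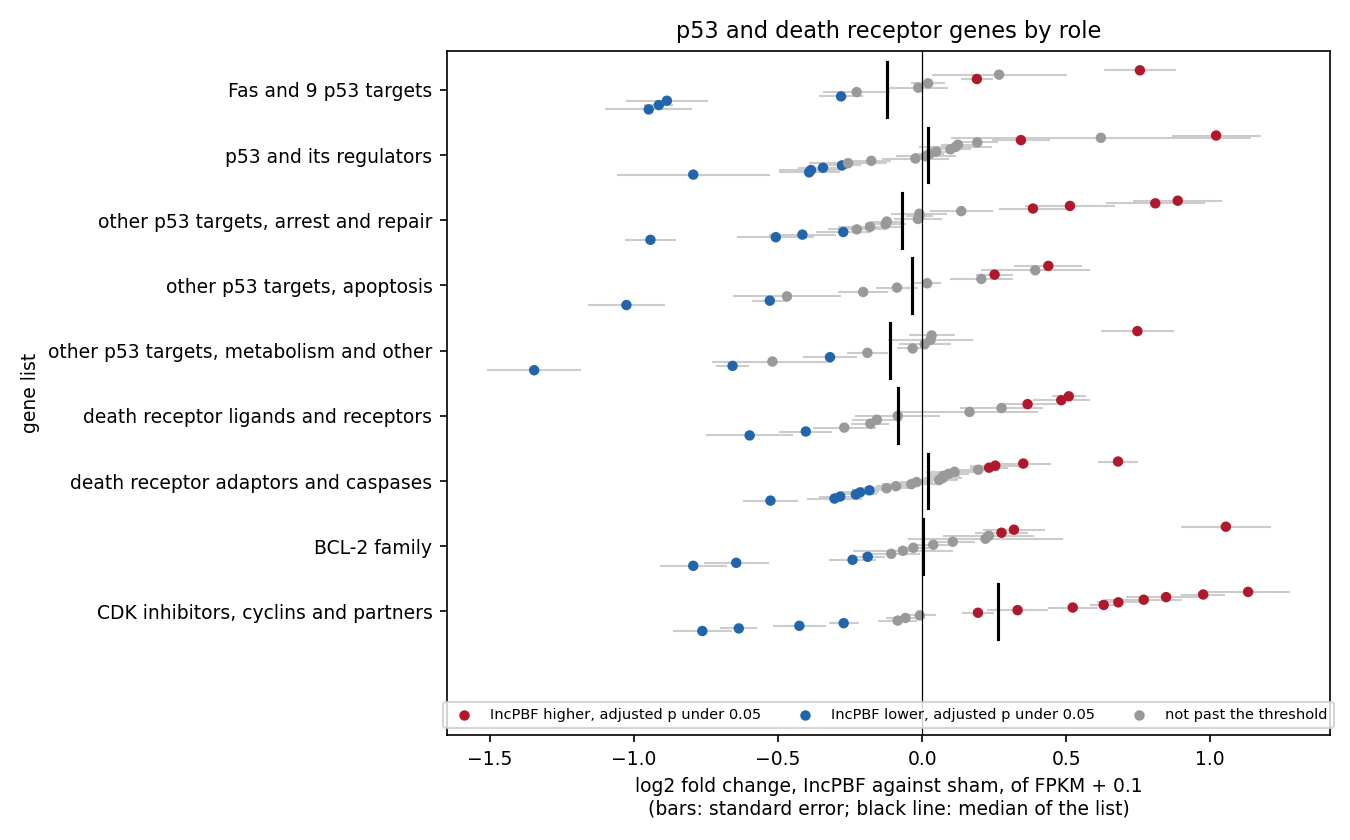
Log2 fold change of IncPBF against sham of FPKM + 0.1 (horizontal) for every gene tested in the 9 lists (vertical), with the standard error and the median of each list; red and blue mark an adjusted p under 0.05 in limma. The median was 0.26 for the cyclin list and between -0.12 and 0.02 for the other lists.

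Of p53 and its regulators, 18 of 20 genes were tested, with 2 higher, 5 lower and a median of 0.02. With an equal total per lung 4 were higher and 5 lower, with a median of 0.10. Trp53 itself rose, from 13.1 ± 1.65 to 16.6 ± 1.78 FPKM (SD, n = 5 each), a log2 fold change of 0.34 (adjusted p = 0.0221 in limma), with every IncPBF lung above every sham lung. With Xist as covariate its log2 fold change was 0.19 and did not pass (adjusted p = 0.569 in limma). Mdm4, the partner of Mdm2 that also restrains p53, was at 9.93 ± 0.769 against 9.92 ± 1.53 FPKM, a log2 fold change of 0.01 that did not pass. Chek1, the kinase of the replication checkpoint, rose by 1.02 (adjusted p = 0.000673 in limma). The kinase Hipk2, the acetyltransferase Ep300 and the p53-binding protein Ppp1r13l fell, with log2 fold changes of -0.79, -0.39 and -0.39. Hipk2 lost its call under 10 of 21 other settings (each lung left out, other filters, scalings, pseudocounts and fits). None of the 7 calls in this list held with Xist as covariate, where all 7 kept their direction. In that fit Chek1 was at 0.80 (SE 0.26), Hipk2 at -0.65 (SE 0.47), Ep300 at -0.42 (SE 0.19) and Ppp1r13l at -0.57 (SE 0.18), and Ppp1r13l also lost its call without sham lung 5.

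Further p53 targets, 36 of 38 tested, moved in both directions, and 7 rose and 9 fell with a median of -0.06. For arrest and repair, 4 rose and 4 fell of 16. Sesn1, which restrains the growth kinase complex mTORC1, fell from 26.2 ± 2.66 to 13.6 ± 1.44 FPKM, a log2 fold change of -0.94 (adjusted p = 3.44e-05 in limma), with no overlap of the groups. Zfp365 and Rprm fell by 0.51 and 0.42 on the log2 scale. Gtse1, which is made in dividing cells, and the kinases Plk2 and Plk3 rose by 0.89, 0.81 and 0.51, and the call of Plk3 was lost under 6 of 21 other settings. Gadd45a, a stress sensor of the DNA damage response, was at 7.70 ± 0.678 against 7.79 ± 0.770 FPKM and did not pass. For apoptosis, 2 rose and 2 fell of 10. Perp, a protein of cell junctions, fell by 0.53 (adjusted p = 0.000154 in limma) and the metalloreductase Steap3 fell by 1.03 on the log2 scale. Siva1 rose by 0.44 and the nuclease Aen by 0.25. Pmaip1, which encodes the Bcl2-binding protein Noxa, had a log2 fold change of -0.47 that did not pass (adjusted p = 0.0765 in limma). For metabolism and other roles, 1 rose and 3 fell of 10. The phosphatidate phosphatase Lpin1 fell from 6.25 ± 1.76 to 2.32 ± 0.0899 FPKM, the epoxide hydrolase Ephx1 fell by 0.66 and the thiamine transporter Slc19a2 fell by 0.32 on the log2 scale, while the adenylate kinase Ak1 rose by 0.75. Slc19a2 lost its call with an equal total per lung and without IncPBF lung 1 or 2. Gdf15, a secreted stress cytokine, was at 0.493 ± 0.183 against 0.437 ± 0.253 FPKM and was not tested. Sesn1, Perp, Steap3, Lpin1 and Ephx1, all lower, were the 5 of these 16 genes to keep their call with Xist as covariate.

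Of the death receptor ligands and receptors other than the members, 11 of 16 were tested, with 3 higher, 2 lower and a median of -0.08. Fas ligand, Fasl, was at 0.0776 ± 0.0423 against 0.0173 ± 0.0263 FPKM and was not tested. Tnfsf10, which encodes Trail, was at 34.5 ± 4.62 against 38.3 ± 2.51 FPKM, a log2 fold change of -0.16 that did not pass. Eda, whose A2 form binds Eda2r, fell by 0.60 on the log2 scale (adjusted p = 0.0117 in limma), and the receptor Tnfrsf21 fell by 0.40. The receptors Tnfrsf19, Tnfrsf12a and Tnfrsf1b rose by 0.51, 0.48 and 0.37, and of these 5 genes Tnfrsf19 and Tnfrsf1b kept their call with Xist as covariate.

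Downstream of the receptors, 20 of 21 adaptors, caspases and inhibitors were tested, with 4 higher, 6 lower and a median of 0.02. With an equal total per lung 6 were higher and 1 was lower. Fadd was at 4.49 ± 0.287 against 3.92 ± 0.324 FPKM and caspase-8 (Casp8) at 17.5 ± 1.00 against 16.4 ± 1.53 FPKM, and neither passed. Cytochrome c (Cycs) rose by 0.35 and Faim, an inhibitor of Fas-induced death, by 0.25, and Faim lost its call under 14 of 21 other settings. Birc3, Birc2 and Cflar, which restrain caspase-8 and the complexes around it, fell by 0.53, 0.28 and 0.30 on the log2 scale. Cflar lost its call under 7 of the 21 settings, and Birc2 with an equal total per lung. With Xist as covariate Birc3, Birc2, Cflar, Cycs and Faim all lost their call and kept their direction. In that fit Birc3 was at -0.39 (SE 0.16) and Cycs at 0.26 (SE 0.17).

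In the BCL-2 family 14 of 15 genes were tested, with 3 higher, 4 lower and a median of 0.00. With an equal total per lung 3 were higher and 2 lower. The protective gene Bcl2l1 fell from 30.04 ± 5.61 to 17.1 ± 1.12 FPKM, a log2 fold change of -0.79 (adjusted p = 0.000545 in limma) that was -0.92 with Xist as covariate. It was the only one of the 7 calls in this family to hold with that covariate, and Bok was then at 0.99 (adjusted p = 0.0755 in limma). The protective genes Bcl2 and Mcl1 were at 4.13 ± 0.281 against 3.84 ± 0.374 FPKM and at 131 ± 3.37 against 134 ± 7.81 FPKM, and neither passed. Of the effectors, Bok rose by 1.05 (adjusted p = 0.000606 in limma) and Bak1 by 0.28, and Bak1 lost its call under 10 of 21 other settings. Of the genes that encode BH3-only proteins, Bmf fell by 0.65 and Bcl2l11 by 0.24, the latter with a call lost under 12 of 21 settings. Bcl2a1a rose by 0.32, with a call lost under 10 of 21 settings, and reads of the near-identical Bcl2a1 copies can be split between them, which makes its value uncertain.

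Cdkn1a acts on cyclin-dependent kinases, and the list of other inhibitors, cyclins and partners had the largest share past the threshold, with 9 higher and 4 lower of 16 and a median of 0.26. Of all genes tested, 16.1% were higher and 16.2% lower. This list too was drawn up with earlier results known, so nothing is read from its share. The inhibitors Cdkn2b and Cdkn1c fell, from 34.7 ± 4.28 to 20.4 ± 2.46 FPKM and from 51.9 ± 2.30 to 33.4 ± 3.10 FPKM, and Rb1 fell by 0.43 on the log2 scale. The inhibitor Cdkn2c rose, from 16.4 ± 1.70 to 32.2 ± 2.33 FPKM, a log2 fold change of 0.98 (adjusted p = 1.47e-05 in limma). Cyclin A2 (Ccna2) rose from 4.27 ± 0.997 to 9.30 ± 0.961 FPKM, and cyclin E1 (Ccne1) rose by 0.85. With Xist as covariate 7 of the 13 kept their call. All 5 markers in the list for dividing cells (Mki67, Top2a, Ccnb1, Cdk1 and Aurkb) rose past the threshold, where 16.1% of all genes tested were higher. The summed level of these markers was 35.1 to 42.9 FPKM in IncPBF lungs, beside 12.9 to 23.8 FPKM in the sham lungs. The part of dividing cells in the values of Cdkn1a was not tested.

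Markers of other cells also moved with the group, and in bulk RNA fewer cells of a type and less RNA per cell cannot be told apart. For these markers, rose and fell mean an adjusted p under 0.05 in limma, where 16.1% of all genes tested were higher and 16.2% lower. Their calls with Xist as covariate are not given, and 4.82% of all genes tested passed in that fit. Of the AT1 markers 5 of 5 fell, with a summed level of 864 to 904 FPKM in IncPBF lungs, beside 1094 to 1428 FPKM in the sham lungs. Of the endothelial markers 5 of 6 fell, with 517 to 575 FPKM against 607 to 840 FPKM, and of the AT2 markers 4 of 6 fell, with summed levels that overlapped. Of the smooth muscle and myofibroblast markers 3 of 5 rose, with 286 to 539 FPKM against 104 to 225 FPKM. Of the mesothelial markers 3 of 3 fell, with a median log2 fold change of -1.27 and 19.4 to 43.2 FPKM against 38.3 to 97.8 FPKM. Of the erythroid markers 3 of 5 fell, with a median of -1.50 and 251 to 1927 FPKM against 1458 to 2442 FPKM. Of the fibroblast markers 2 rose and 1 fell of 6, and their summed levels overlapped. The summed levels of the markers of club cells, ciliated cells, cardiomyocytes, macrophages, neutrophils, T and NK cells and B cells overlapped between the groups in each list. No marker in these lists was at 0 in every lung. The part of these cells in the level of Fas was not tested.

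The 5 genes with the pattern most like that of Fas were found among 15387 genes by the root mean square difference of log2 levels, each centred over the 10 lungs. They were Adgrl4, an adhesion receptor of endothelial cells, with a difference of 0.0838, Dtna (0.0871), the phosphatase Ptpru (0.0879), the dendritic cell receptor Clec9a (0.0887) and the cytochrome Cyp4b1 (0.0935). Adgrl4 averaged 19.5 ± 1.04 FPKM for IncPBF and 36.05 ± 4.46 FPKM for sham (SD, n = 5 each). None of the other 9 genes was among these 5, and the likeness was chosen over the same lungs, so it is a description only.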

How the data were processed

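The authors isolated total RNA from P14 lungs (with a column kit according to the paper, with Trizol per the labels), sequenced NEBNext libraries on a NovaSeq instrument and deposited 1 table of FPKM, with gene names, positions and lengths. The aligner and counter are not given in the sources used here beyond Bowtie 0.12.2, which the submitters' processing notes name without a role. The columns of the IncPBF lungs are named for volume overload and were matched by number. Of the genes shared with GENCODE M21 on GRCm38, 98.3% had identical positions. Multiplying FPKM by gene length gave whole fragments, in units of a lung-specific constant, for 100% of values (tolerance 0.01, widened in proportion for large counts).

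Genes with a mean of at least 0.5 FPKM were tested on log2(FPKM + 0.1), which understates changes of low genes, with limma 3.58.1 (lmFit, eBayes with a trend) in R 4.3.3, two-sided, with Benjamini-Hochberg adjustment over 15388 genes. Summaries used Python 3.11.15 and pandas 2.3.3. The function was tested on simulated data. The members and lists were chosen with earlier results of these data known. Named are the members, 17 pathway genes fixed by role, per list up to 3 rises and 3 falls past the threshold by size, and the 5 genes most like Fas. One gene that this rule names is not reported here. Genes that overlap a member are also named, and Gm45808, which overlaps Bax, had at most 1 fragment per lung. Marker genes of cell types are given by list. Scgb1a1 was singled out of its list after its values were seen, and Gm23935 is named only as the highest gene of sham lung 5. Alternatives are given in the closing section. The paper's methods state no model, and no set test was run. Values named as counting error cover the count of fragments only, while SDs and standard errors rest on the spread between lungs.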

Additional observations from a re-analysis of the deposited data

Results flagged for a closer look

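In 8 of 134 groups of 5 lungs examined over the 67 named genes (5.97%), 1 lung lay far from the other 4 by Dixon's test at the 95% level, and chance gives about 1 in 20. None of the 8 was in one of the 10 members, and Pmaip1 is among the further p53 targets. Trp53 was at 19.7 FPKM in IncPBF lung 3 against 14.9 to 16.3 FPKM in the other IncPBF lungs, and at 10.2 FPKM in sham lung 1 against 13.4 to 14.3 FPKM in the other sham lungs. Ccna2 was at 11.0 FPKM in IncPBF lung 3 against 8.63 to 8.98 FPKM. Bcl2l11 was at 5.54 FPKM in IncPBF lung 4 against 6.89 to 7.11 FPKM. Rb1 was at 11.3 FPKM in sham lung 1 against 8.08 to 8.64 FPKM. Pmaip1 was at 2.11 FPKM in sham lung 3 against 3.74 to 4.32 FPKM. Bcl2 was at 4.48 FPKM in sham lung 4 against 3.53 to 3.80 FPKM. Tnfrsf1b was at 10.6 FPKM in sham lung 5 against 7.99 to 8.66 FPKM.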

How the results depend on the processing

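With log2 Xist as a covariate, 0 members were higher and 1 (Fas) was lower, 8 pathway genes were higher and 8 lower, and 328 of all genes tested were higher and 413 lower. In this fit 3173 genes had an unadjusted p under 0.05 in limma. In IncPBF lung 1 against the 5 sham lungs, a comparison chosen after the data were seen that takes the lone lung to vary like the sham lungs, 0 members were higher and 1 lower, 2 pathway genes were higher and 1 lower, and 42 of all genes were higher and 112 lower, with 2548 at an unadjusted p under 0.05. These fits rest on 1 IncPBF lung, and all 53 named genes past the threshold kept their direction in both. With each lung left out in turn, 1 to 2 members were higher, the loss being Bax without IncPBF lung 3 or 4. With an equal total per lung, 3559 of all genes were higher and 1782 lower, against 2480 and 2490 as deposited. With the replicate number as a block, 2 members were higher and 4 lower, as without it, and 2390 of all genes were higher and 2482 lower. Same-numbered lungs showed little common deviation (correlations of -0.07 to 0.09, 2 of 5 IncPBF lungs closest to their own number). With so few lungs this check cannot tell whether same-numbered pups shared a litter. The block lowered the rises among adaptors and caspases from 4 to 2 and moved no other count of calls given here by over 1.5 times. Over the 21 other settings, which leave out the Xist covariate and the lung 1 comparison, 42 of the 53 named genes kept their call in each one where they were tested. With log2 Xist as a covariate 19 of the 53 kept their call. The pseudocount of 1 or 0.01, the minimum of 1 FPKM or none, median centring, quantile normalization, eBayes without the trend, limma-voom on fragments, and the removal of chromosomes X and Y left 2 members higher and 4 lower. Depth limits mainly Eda2r, at 33 to 81 fragments per lung.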
